A study of Homo sapiens with 4 samples.

Results

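The human Schlafen genes form a small family of genes that respond to interferon and that act on transfer RNA, ribosomes and replicating DNA. Their expression was followed here in PANC-1, a pancreatic ductal adenocarcinoma cell line, and in PZT-2, a clone made from it in which the histone variant H2A.Z was depleted. The members were 7 genes whose symbols stand in the deposited comparison of the cell lines, SLFN5, SLFN11, SLFN12, SLFN12L, SLFN13, SLFN14 and SLFNL1, among 15223 genes with values in the libraries. Of the 7 members, 5 had values in the libraries and passed the filter (5 or more counts in 2 or more libraries), and SLFN12L and SLFN14 had none. The family was chosen by the normalized counts of these same libraries, with the difference between PANC-1 and PZT-2 in view, so its members' differences are described below and not tested.

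Enriched mRNA was sequenced from 4 libraries, 2 of PANC-1 and 2 of PZT-2, and the study asked how loss of H2A.Z alters transcription in pancreatic cancer cells. The PANC-1 libraries came from the parental cells without any vector. PZT-2 cells carried lentiviral short hairpin RNAs under the U6 promoter, 1 against H2A.Z.1, the product of H2AFZ, and 1 against both H2A.Z.2 isoforms, which come from H2AFV, and both lines were grown in DMEM with fetal bovine serum. PZT-2 is 1 clone, obtained under selection with puromycin. The hairpins, the vector, the selection and the clone's own history therefore cannot be told apart in this comparison. The p-values and calls below rest on the spread between libraries of 1 clone and of the parental line. They do not cover variation between clones. Libraries of cells with a scrambled hairpin are not analysed here. Each library held between 12861486 and 15717578 recovered counts, and the sources describe the 2 libraries of a line as biological replicates.

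Schlafen proteins share a core domain that in several members cuts RNA, and the longer ones, such as SLFN5, SLFN11, SLFN13 and SLFN14, add a helicase-like domain at the C-terminus. SLFN11 binds stressed replication forks and blocks replication when DNA is damaged, and its level marks how strongly tumour cells respond to topoisomerase inhibitors, platinum compounds, PARP inhibitors and other DNA-damaging drugs. In many tumours the gene is silent, often with a methylated promoter or with histone H3 lysine 27 trimethylation over it. Drug response itself was not measured in these libraries. In a separate assay, the study found PZT-2 more sensitive than PANC-1 to the drug gemcitabine. Whether SLFN11 bears on that difference was not tested.

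The knockdown was read first as a check of the labels. H2AFZ had 6389 and 6034 normalized counts in the PANC-1 libraries and 2213 and 2259 in the PZT-2 libraries, a log2 fold change of -1.47 (SE 0.0565, Benjamini-Hochberg adjusted p = 6.31e-05 by the quasi-likelihood test of edgeR, n = 2 per line). H2AFV had 3344 and 3452 against 2590 and 2717 (log2 fold change -0.36, SE 0.0568, edgeR adjusted p = 0.00567), a call lost without PZT-2 replicate 1 and with the most abundant transcript alone. A normalized count is a count divided by the effective library size and multiplied by the mean effective library size. Over all 15103 genes tested, 4281 (28.3%) were called at an adjusted p under 0.05, with 2219 (14.7%) above PANC-1 in PZT-2 and 2062 (13.7%) below it, and the median log2 fold change was 0.00083. Of the calls 51.8% were higher in PZT-2, against 62.1% when limma-trend was run on log2(TPM + 1) and 62.2% on log2(TPM + 0.1), where TPM is a level per transcript length in which every library has the same sum. All 8 markers of pancreatic ductal carcinoma epithelium had values, and their summed TPM was 7370 to 7512 in PANC-1 and 4085 to 4183 in PZT-2, of which the keratins KRT8, KRT18 and KRT19 made up 96.6% to 98.3%. SOX9 was at 73.6 and 68.2 TPM in PANC-1 and at 89.7 and 85.9 in PZT-2, and EPCAM overlapped between the lines. CDH1 was at 3.03 TPM or more in the PANC-1 libraries and at 0.527 or less in the PZT-2 libraries. MUC1 was at 48.2 and 40.9 TPM in PANC-1 and at 34.8 and 29.9 in PZT-2, and KRT7 was lower in PZT-2 without overlap. Of 9 immune markers 4 had values, with a summed TPM of 119 to 122 in PANC-1 and 126 to 132 in PZT-2 that was nearly all CD68, and the defining markers PTPRC, CD3D, CD3E and MS4A1 had none. No acinar marker of 8, 1 islet marker of 6 and 1 endothelial marker of 4 had values. In bulk RNA, fewer cells that express a gene and less of its RNA per cell cannot be told apart.

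SLFN11 was the member with the largest difference, and was nearly absent from PZT-2. It had 405 and 528 normalized counts in the PANC-1 libraries and 7.05 and 5.93 in the PZT-2 libraries. Every PANC-1 value was thus above every PZT-2 value, and the spread within a line was small beside the gap between the lines. The fitted log2 fold change of PZT-2 over PANC-1 was -6.15 (SE 0.256), a 70.8-fold lower level. The ratio of the summed counts, 944 reads in PANC-1 and 13 in PZT-2, was 73.0 after correction for library size, with a 95% interval from 42.5 to 138 that covers counting error only. In TPM, which corrects for transcript length, SLFN11 was at 11.6 ± 2.34 (SD, n = 2) in PANC-1 and at 0.170 ± 0.0204 in PZT-2. On the log2(TPM + 1) scale, where the added 1 understates the change of a gene this low in PZT-2, the difference was -3.42, and on the log2(TPM + 0.1) scale it was -5.43. Left out in turn, each library gave a log2 fold change between -6.33 and -5.94.

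Among the 12511 genes with a mean of at least 20 normalized counts, 6 had a lower fitted log2 fold change than SLFN11, namely BCAT1, CUX2, SLC20A2, KCNQ5, UNC5C and FAM107B. BCAT1 and CUX2 had 0 counts in both PZT-2 libraries, so their fitted values depend on the fit and are no bounds. The next gene above SLFN11 in that order was CENPC, at -5.69. This order uses the contrast by which the family was chosen and is given as a description.

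**Figure D1:**
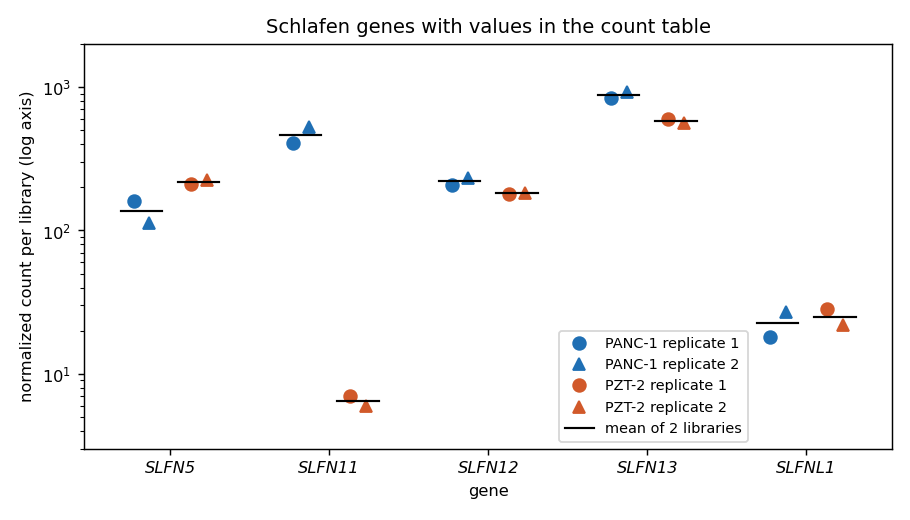
Normalized counts of the 5 Schlafen genes with values, on a log axis, with 1 point per library (circles, replicate 1; triangles, replicate 2; blue, PANC-1; orange, PZT-2) and a bar at the mean of the 2 libraries of a line. SLFN11 lies at 405 and 528 in PANC-1 and at 7.05 and 5.93 in PZT-2, SLFN12 and SLFN13 are lower and SLFN5 is higher in PZT-2, and the SLFNL1 libraries overlap.

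The promoter of SLFN11 is shown beside those of the other members found in the reference, SLFN12, the next gene on the same strand, whose level differed far less between the lines, and SLFN12L, which had no values. Of the 7 members, 3 had an entry in the RefSeq promoter table of GRCh38.p14, and the 250 bases before the annotated start are shown, 5′ to 3′ on the minus strand, on which all 3 genes lie. SLFN11 is at chr17:35373622-35373871, SLFN12 at chr17:35433175-35433424 and SLFN12L at chr17:35537679-35537928. Capitals mark matches to 3 motifs searched on both strands, the interferon-stimulated response element (GAAA, any 2 bases, GAAA), the gamma-activated site TTCNNNGAA and the ETS core CCGGAA.
SLFN11: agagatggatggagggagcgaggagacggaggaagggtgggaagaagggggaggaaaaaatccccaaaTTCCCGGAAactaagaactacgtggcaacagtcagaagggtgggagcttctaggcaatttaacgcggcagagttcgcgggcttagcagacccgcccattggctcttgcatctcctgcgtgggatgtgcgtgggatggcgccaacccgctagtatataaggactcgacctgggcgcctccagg
SLFN12: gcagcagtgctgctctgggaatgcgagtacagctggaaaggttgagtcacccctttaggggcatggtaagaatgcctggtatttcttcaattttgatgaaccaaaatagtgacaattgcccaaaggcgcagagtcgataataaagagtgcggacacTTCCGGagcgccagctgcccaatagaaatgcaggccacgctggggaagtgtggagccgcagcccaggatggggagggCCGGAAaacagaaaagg
SLFN12L: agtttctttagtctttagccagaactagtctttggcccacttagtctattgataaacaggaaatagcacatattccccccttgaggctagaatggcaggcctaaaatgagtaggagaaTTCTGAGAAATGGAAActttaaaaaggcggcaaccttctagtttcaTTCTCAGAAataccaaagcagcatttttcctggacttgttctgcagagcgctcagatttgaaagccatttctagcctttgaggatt

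The SLFN11 window held 1 gamma-activated site, TTCCCGGAA, 182 to 174 bases before the start, and the ETS core CCGGAA, 179 to 174 bases before it, lies inside that match. The SLFN12 window held 2 ETS cores, 94 to 89 bases before the start on the opposite strand and 17 to 12 bases before it. In SLFN12L, the gene without values, 1 interferon-stimulated response element overlapped 1 of 2 gamma-activated sites. Among 27305 promoters of the same length, 3.07% held an interferon-stimulated response element, 6.78% a gamma-activated site and 14.8% an ETS core. SLFN11 had 15 CpG dinucleotides in its window, SLFN12 had 9 and SLFN12L had 2, against a median of 11 over these promoters. A match is a stretch of letters in this window and does not show that a factor binds there.

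The reads of SLFN11 were estimated over 5 RefSeq transcripts, NM_001104587, NM_001104588, NM_001104589, NM_001104590 and NM_152270, whose counterparts in GENCODE 29 share the same coding exons, so that they differ only outside the coding part. In PANC-1 replicate 1 the recovered counts were 108 for NM_001104588, 82.4 for NM_001104589 and 169 for NM_001104590, with 0 for the other two. In PANC-1 replicate 2 all 5 had counts, from 29.7 for NM_001104589 to 218 for NM_001104588. In PZT-2 replicate 1 all 6.83 counts were assigned to NM_152270, and in PZT-2 replicate 2 it was 5.51 to NM_001104590 and 0.52 to NM_001104589. The low level was thus seen in the sum over the gene, while the split between these transcripts differed between replicates of the same line and carries no comparison.

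SLFN13 is the member closest to SLFN11 in sequence and, like it, cuts transfer RNA in its core domain. Its libraries held 835 and 918 normalized counts in PANC-1 and 596 and 562 in PZT-2. The PANC-1 libraries were both above the PZT-2 libraries, and the fitted log2 fold change was -0.60 (SE 0.0813), a 1.52-fold lower level. In TPM, SLFN13 was at 13.2 ± 1.15 (SD, n = 2) in PANC-1 and at 9.03 ± 0.411 in PZT-2. A single transcript, NM_144682, carried the counts.

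Reads of such close relatives could in principle be shared. Over the coding sequence, SLFN11 and SLFN13 were 86.9% identical in an alignment of the GENCODE transcripts, and SLFN12 and SLFN12L 87%, while the other pairs of members lay between 53.2% and 67.6%. By default kallisto assigns reads by their matches to stretches of 31 bases, and 17.6% of those stretches of SLFN11 also occurred in another member, against 10.5% for SLFN13, 9.92% for SLFN12L, 5.78% for SLFN12, 0.284% for SLFN5 and none for SLFN14 and SLFNL1. In SLFN11, 82.3% of the stretches were found in no other gene. PZT-2 held 592 and 568 counts of SLFN13 beside the 7 and 6 of SLFN11, and whether those few reads of SLFN11 came from its relative was not tested.

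SLFN12 lacks the helicase-like domain, and with the phosphodiesterase PDE3A it forms the complex through which the drugs called velcrins kill cells. It had 207 and 234 normalized counts in PANC-1 and 179 and 184 in PZT-2. The libraries of the lines did not overlap, yet the distance between the lowest PANC-1 and the highest PZT-2 library was smaller than that between the PANC-1 replicates. The fitted log2 fold change was -0.28 (SE 0.12), a 1.22-fold lower level, and the TPM was 11.8 ± 1.26 (SD, n = 2) in PANC-1 and 10.0 ± 0.140 in PZT-2. Its counts were divided over 2 transcripts with the same coding exons. NM_018042 had recovered counts of 91.5 and 143 in PANC-1 and 101 and 111 in PZT-2, and NM_001289009 had 92.5 and 116 against 77.2 and 75.0. With the more abundant transcript alone the log2 fold change of SLFN12 was -0.14. The partner PDE3A had no values, and its relative PDE3B had 590 ± 29.4 normalized counts in PANC-1 and 459 ± 22.0 in PZT-2 (SD, n = 2; log2 fold change -0.37, edgeR adjusted p = 0.0210). The PDE3B call was lost with either PZT-2 library left out and in 5 other alternatives, DESeq2 and both limma-trend fits among them, and its edgeR, DESeq2 or limma adjusted p ran from 0.0113 to 0.167 over the alternatives.

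SLFN5, a nuclear member that is induced by type I interferon in several cell types, was higher in PZT-2. It had 159.8 and 113 normalized counts in PANC-1 and 209 and 225.5 in PZT-2. Both PZT-2 libraries were above both PANC-1 libraries, and the PANC-1 libraries were farther from each other than the PZT-2 libraries. The fitted log2 fold change was 0.68 (SE 0.179), a 1.61-fold higher level, and the TPM was 2.81 ± 0.896 (SD, n = 2) in PANC-1 and 5.13 ± 0.338 in PZT-2. This sum covers 2 transcripts, NM_144975 and NM_001330183, the latter of which carries no symbol in the deposited table and was named through RefSeq. NM_144975 had 96.8 and 46.5 normalized counts in PANC-1 and 135 and 154 in PZT-2, and NM_001330183, with 9885 bases against 4660, had 63.1 and 66.7 against 74.7 and 72.2. Neither transcript overlapped between the lines, and the gap was wider in NM_144975, which alone gave a log2 fold change of 1.04. With single libraries left out, the log2 fold change of SLFN5 ran from 0.44 to 0.94.

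SLFNL1, the Schlafen-like gene on chromosome 1, is distant from the rest of the family and its function is little described. It had 18.0 and 27.1 normalized counts in PANC-1 and 28.2 and 21.8 in PZT-2, so the lines overlapped. The log2 fold change was 0.13 (SE 0.366), and it turned to -0.12 without PANC-1 replicate 1 and to -0.06 without PZT-2 replicate 1. In TPM it was 1.48 ± 0.444 (SD, n = 2) in PANC-1 and 1.74 ± 0.237 in PZT-2. Its antisense neighbour SLFNL1-AS1 had 73.1 and 72.3 normalized counts in PANC-1 and 90.6 and 65.3 in PZT-2. The libraries were made with a stranded kit, but whether the strand was used in counting is not given in the sources used here, so reads of this pair may not be separable.

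SLFN12L and SLFN14 each stood in the comparison table with 1 transcript and had no values per library. The count table lists only transcripts that reached at least 5 recovered counts in at least 1 library, and neither these members nor the other SLFNL1 transcript, NM_144990, stand in it. SLFN14 is best known from platelets and reticulocytes, where it cuts ribosomal RNA.

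Counted together, 3 members were lower in PZT-2 without overlap of the libraries (SLFN11, SLFN12 and SLFN13), 1 was higher (SLFN5) and 1 overlapped (SLFNL1), out of 5 with values. Over all genes tested, 33% were lower and 33.3% higher without overlap, 66.3% in all. Since the same contrast chose the family, nothing is read from this count. The median log2 fold change of the 5 was -0.28, beside 0.00083 over all genes.

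Read per length, the order of the members changed between the lines. In PANC-1, SLFN13, SLFN12 and SLFN11 lay together at 13.2, 11.8 and 11.6 TPM, with overlapping libraries. SLFN5 followed at 2.81 and SLFNL1 at 1.48 TPM, with all libraries of each below those of the gene before it. In PZT-2 the order was SLFN12 at 10.0, SLFN13 at 9.03, SLFN5 at 5.13, SLFNL1 at 1.74 and SLFN11 at 0.170 TPM, and no neighbours in this order overlapped. The family summed to 40.9 ± 4.30 TPM (SD, n = 2) in PANC-1 and 26.1 ± 0.191 in PZT-2. SLFN11 made up 28.3% ± 2.75 of that sum in PANC-1 and 0.650% ± 0.0735 in PZT-2. Without SLFN11 the sums were 29.2 ± 1.95 and 25.9 ± 0.171 TPM, so most of the difference in the sum was SLFN11. SLFN5 made up 7.03% ± 2.93 and 19.7% ± 1.44.

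**Figure D2:**
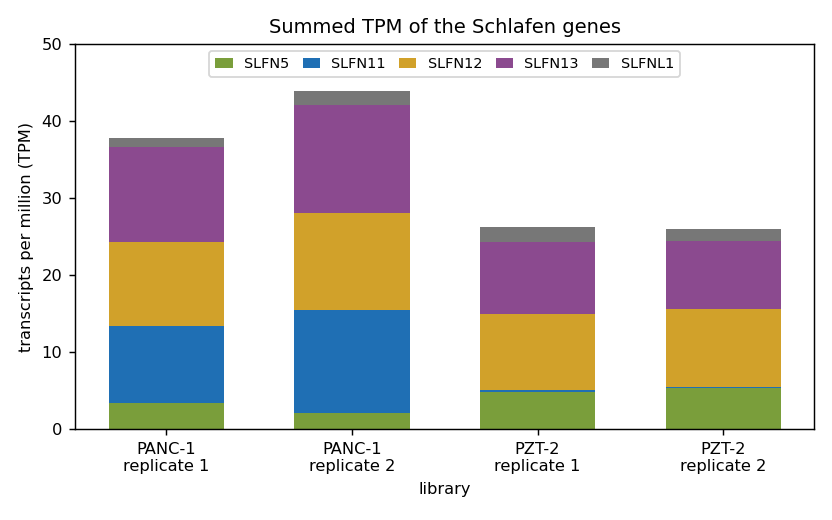
Stacked TPM of the 5 Schlafen genes with values in each of the 4 libraries, from 0. The sum is 37.8 and 43.9 TPM in the PANC-1 libraries and 26.2 and 26.0 TPM in the PZT-2 libraries, and the blue SLFN11 part is almost absent in PZT-2.

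Along chromosome 17, 6 members lie next to each other in the order SLFN5, SLFN11, SLFN12, SLFN13, SLFN12L and SLFN14, with SLFN5 on the plus strand and the others on the minus strand. The low SLFN11 of PZT-2 was flanked by a higher SLFN5 on one side and a slightly lower SLFN12 on the other. Of the 10 protein-coding genes on each side, 12 of 20 were tested, and 3 were called higher and 1 lower, 33.3% in all, beside 28.3% of all genes and 27.8% of the 946 genes tested on chromosome 17. The median log2 fold change of the 12 was -0.04. The nearest gene before the cluster, LOC105371932, had no values. Of the genes called, the chemokine CCL5 rose (log2 fold change 1.67, SE 0.166, edgeR adjusted p = 0.00116), and TAF15 rose by 0.38, a call lost without PZT-2 replicate 2. AP2B1 fell by 0.18 on the log2 scale, a call lost with either PZT-2 library left out and in both limma-trend fits. Leaving out PZT-2 replicate 1 gave 2 calls in this list, and leaving out PZT-2 replicate 2 gave 1. Around SLFNL1 on chromosome 1, 8 of 10 neighbours were tested, and 3 were called higher and 3 lower. That is 75% in all, beside 28.3% of all genes and 25.9% of the 1530 genes tested on chromosome 1. Among those called lower was SCMH1, the nearest after SLFNL1 (log2 fold change -0.58, edgeR adjusted p = 0.0188, a call lost without PZT-2 replicate 2 and in 2 other alternatives). CTPS1, the nearest before it, was not called (log2 fold change 0.11, edgeR adjusted p = 0.204).

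**Figure D3:**
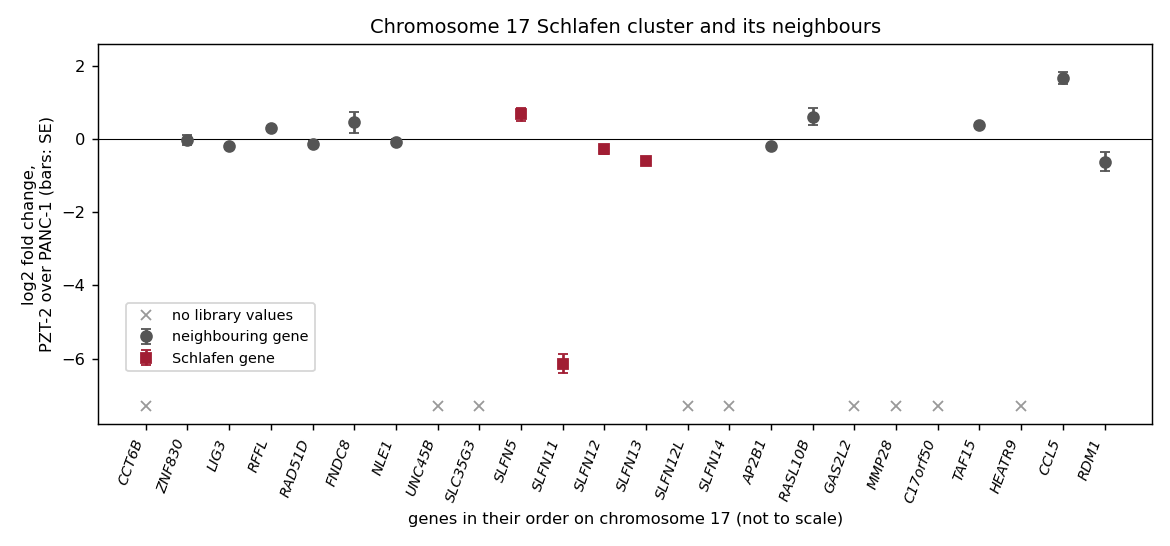
Fitted log2 fold change of PZT-2 over PANC-1, with its SE as a bar, for the chromosome 17 Schlafen genes (red squares) and the second to the tenth protein-coding gene on each side (grey circles), in gene order and not to scale, with crosses for genes without values. SLFN11 stands alone at -6.15, while the neighbours drawn with values lie between -0.62 and 1.67.

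For each member with a mean of at least 20 normalized counts, the 3 genes most like it were taken by the root mean square difference, over the 4 libraries, of log2(normalized count + 1), each gene centred on its own mean, among genes whose mean lay within 2-fold. For SLFN11, 3943 genes were compared. ARNT2 came nearest at 0.667, followed by KCNQ5 at 0.857 and FAM107B at 1.13. A distance can be larger where the change is larger, so these are not set beside the distances of the other members. UNC5C, with a log2 fold change of -6.51, had 144 and 152 normalized counts in PANC-1 and 1.01 and 1.98 in PZT-2. The mean of UNC5C lay below the 2-fold window, so it was not compared, and ARNT2 is the nearest within that window only. ARNT2 had 272 and 228 normalized counts in PANC-1 and 8.05 and 8.90 in PZT-2. For SLFN5 the nearest were PELI3, DUSP6 and REEP2, at 0.0230 to 0.0426. For SLFN12 they were TBC1D9, TOE1 and MSANTD2, at 0.00390 to 0.0138, for SLFN13 PTBP3, ZFYVE16 and SPIN1, at 0.0181 to 0.0272, and for SLFNL1 DMC1, PARTICL and SCG2, at 0.0272 to 0.0427. With 4 libraries in 2 groups many genes share such a pattern, so likeness is a description only.

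Interferons induce several Schlafen genes, and the genes of that pathway were counted beside the family. With a filter of at least 10 counts in all 4 libraries, 4567 of 12735 genes were called, a larger share than the 28.3% of the main fit. That filter gave 6 of 14 interferon receptors, kinases and transcription factors, and 19 of 33 interferon-induced genes. The calls that follow are those of the main fit unless a change is named. Of 16 interferon receptors, kinases and transcription factors, all tested, 6 were called higher and 0 lower (37.5% called, beside 28.3% of all genes, with a median log2 fold change of 0.03). The largest was IFNGR1, a chain of the interferon gamma receptor, with 230.4 ± 24.2 normalized counts in PANC-1 and 343 ± 10.5 in PZT-2 (SD, n = 2; log2 fold change 0.58, edgeR adjusted p = 0.0112, a call lost without PZT-2 replicate 2 and with the most abundant transcript alone). Leaving out PZT-2 replicate 1 gave 2 calls among the 16, both higher, and leaving out PZT-2 replicate 2 gave 2, both lower. Of 46 interferon-induced genes 39 were tested, and 3 were called higher and 14 lower (43.6% called, with a median log2 fold change of -0.35, also with XAF1, which had 0 counts in both PZT-2 libraries, set to its bound). IFITM1, a membrane protein that blocks virus entry, fell from 305 ± 74.7 to 20.4 ± 6.09 normalized counts (SD, n = 2; log2 fold change -3.88, edgeR adjusted p = 0.000430), and IFITM3 fell by 1.67 on the log2 scale. ISG20 rose by 1.10 and ISG15, a ubiquitin-like modifier, by 0.59. Without PZT-2 replicate 2, 2 were called higher and 9 lower.

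SLFN11 acts where replication forks stall, and both the genes of the replication stress checkpoint and the targets of DNA-damaging drugs were called in either direction. The lists of this paragraph stand beside 28.3% of all genes called, 14.7% higher and 13.7% lower. With a filter of at least 10 counts in all 4 libraries, 4567 of 12735 genes were called, a larger share. Of 24 checkpoint genes tested, 4 were called higher and 6 lower (41.7%, median log2 fold change 0.03). CUL4B, the scaffold of a ubiquitin ligase, fell by 0.92 on the log2 scale (edgeR adjusted p = 0.000545), and the phosphatase CDC25A rose by 0.82 (edgeR adjusted p = 0.00592, lost with the most abundant transcript alone). With either PZT-2 library left out, 3 checkpoint genes were called. Of 26 tested drug targets and repair genes out of 27, 5 were called higher and 6 lower (42.3%, median -0.07). The drug exporter ABCG2 fell from 1320.0 ± 149.9 to 731 ± 11.98 normalized counts (SD, n = 2; log2 fold change -0.85, edgeR adjusted p = 0.00146), and topoisomerase TOP2A fell by 0.73. TDP2, which removes topoisomerase 2 from DNA ends, rose by 0.51, a call lost without PZT-2 replicate 2. Leaving out PZT-2 replicate 1 gave 4 calls among drug targets and repair genes, and leaving out the other PZT-2 library gave 5. Of 14 genes of transfer RNA cleavage and stalled ribosomes, the processes in which SLFN11, SLFN13 and SLFN14 act, 2 were called higher and 3 lower (35.7%, median -0.07), and with either PZT-2 library left out 2 were called. The ribonuclease inhibitor RNH1 fell by 0.50 on the log2 scale (edgeR adjusted p = 0.00202). With the filter of at least 10 counts in all 4 libraries, 10 of 24 checkpoint genes were called. That filter gave 14 of 26 drug targets and repair genes, and 5 of 14 genes of transfer RNA cleavage and stalled ribosomes. The last is a share near that of 4567 of 12735 genes.

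SLFN11 transcription is known to depend on ETS factors, among them FLI1, and on histone and DNA methylation. Of 30 such regulators 27 were tested, and 9 were called higher and 3 lower (44.4%, beside 28.3% of all genes, with a median log2 fold change of 0.09). FLI1 had 36.0 and 41.6 normalized counts in PANC-1 and 4.03 and 0 in PZT-2, so it was low in both PZT-2 libraries (log2 fold change -4.20, SE 0.751, edgeR adjusted p = 0.00852). This call was lost with the most abundant transcript alone. The other genes called lower were DNMT1, the maintenance DNA methyltransferase, by 0.41 on the log2 scale, and EZH2, the H3 lysine 27 methyltransferase, by 0.34. The call of DNMT1 was lost without PZT-2 replicate 2 and with the most abundant transcript alone, and that of EZH2 in 8 of the alternatives. ETV4 and ETV5, which are also ETS factors, rose by 1.31 and 0.91, the former a call lost with the most abundant transcript alone, and the DNA methyltransferase DNMT3A rose by 1.11 (edgeR adjusted p = 0.000981). Without PZT-2 replicate 2, 5 were called higher and 1 lower. With a filter of at least 10 counts in all 4 libraries, 12 of 26 regulators were called, beside 4567 of 12735 genes. SLFN11 and FLI1 were both lower in PZT-2, and whether the one bears on the other was not tested.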

How the data were processed

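The authors trimmed 76-base read pairs from stranded mRNA libraries with Trim Galore 0.4.1, estimated RefSeq transcripts with kallisto 0.43.0 and compared the lines with sleuth 0.29.0. The submitters' processing notes name the build hg19. The authors deposited expected counts and TPM per transcript and library and a table of their own fold changes and p-values, of which only the gene symbols were used.

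In the deposited table each library has its estimated counts multiplied by a factor (0.935 to 1.16), which was undone so that low values of single-transcript genes became whole again. Among values from 0.5 to 30 of these genes, 49.0% to 49.8% were then whole to within 0.01, against 0.634% to 2.71% as deposited. Recovered totals were 12861486 to 15717578. Of 31077 transcripts, 27049 were named by the table, 3925 by RefSeq (GRCh38.p14), and 103, with 0.0467% of the counts, stayed unnamed. Counts were summed per gene, rounded, filtered (at least 5 counts in 2 libraries) and fitted with edgeR 4.0.16 (TMM, quasi-likelihood, Benjamini-Hochberg, threshold 0.05) in R 4.3.3, after a test on simulated data. TPM were rescaled to sum to 1000000 over the table. With 2 against 2 libraries the smallest p of an exact permutation test is 0.333, so none was made. Deviations of equally numbered replicates correlated at r = 0.0154 over genes, which gave no sign that the numbers pair libraries but cannot exclude it. Replicates differed by 11.5 to 13.7 times the counting variance, so none is a duplicate.

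The members, the gene lists and the tests were chosen with earlier results of these data known. From each list the text names called genes with the largest change in a direction, with a mean of at least 20 normalized counts and no overlap between the lines, at most 3 in each direction. Alternatives used DESeq2 1.42.0, limma 3.58.1, RLE size factors, other filters, the replicate number as a block, single libraries left out, the deposited counts and the most abundant transcript, and, chosen after seeing the data, only transcripts that the deposited table names. Sequences were aligned with Biopython. Results for some genes that the naming rule covers are not reported here.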

Additional observations from a re-analysis of the deposited data

How the results depend on the processing

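The log2 fold changes of SLFN5, SLFN11, SLFN12 and SLFN13 kept their direction under every alternative that gave a value. SLFN11 has no value with a filter of at least 10 counts in all 4 libraries, which it does not pass in PZT-2. Limma-trend on TPM gave it -3.42 with a pseudocount of 1 and -5.43 with 0.1, the pseudocount being large beside its TPM in PZT-2. Single libraries left out gave -6.33 to -5.94 for SLFN11, 0.44 to 0.94 for SLFN5, -0.37 to -0.20 for SLFN12, -0.67 to -0.54 for SLFN13 and -0.12 to 0.46 for SLFNL1, which changed sign. With the most abundant transcript alone, SLFN12 was at -0.14 and SLFNL1 at -0.020, and 2123 genes were called. Single libraries left out gave 2026 to 4606 called genes, the fewest without PZT-2 replicate 2, and 2460 when replicate 1 was left out instead, where the lone PZT-2 library is assumed to vary like the PANC-1 pair.

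The same alternatives gave 2 to 7 called interferon receptors, kinases and transcription factors, 11 to 18 interferon-induced genes, 3 to 13 checkpoint genes, 4 to 13 drug targets and repair genes, 2 to 6 genes of transfer RNA cleavage and stalled ribosomes, 0 to 1 of the PDE3A list, 6 to 12 regulators and 1 to 5 neighbours on chromosome 17. The most abundant transcript alone gave 11 interferon-induced genes, 4 checkpoint genes, 5 drug targets and repair genes, 3 of transfer RNA cleavage, 0 of the PDE3A list and 4 regulators. Checkpoint genes came to 6 with DESeq2 and 6 with the replicate block. Both limma-trend fits gave 3 genes of transfer RNA cleavage, and these fits, DESeq2 and the transcripts that the table itself names gave 0 of the PDE3A list. The cause of these differences was not tested. With the replicate number as a block 3738 genes were called, SLFN11 was at -6.14 and SLFN5 at 0.69, and the correlation of equally numbered replicates gave no sign of pairing (r = 0.0154). Depth limits SLFN11 in PZT-2 and SLFNL1 in both lines.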
